A study of Mus musculus with 18 samples.

Results

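The respiratory chain of the inner mitochondrial membrane ends in 3 large machines. Complex III passes electrons from ubiquinol to cytochrome c, complex IV (cytochrome c oxidase) passes them on to oxygen, and the ATP synthase lets the protons that these complexes pumped flow back through its membrane ring, which turns a rotor inside the catalytic F1 head and makes ATP. A few subunits of complexes III and IV and of the synthase are encoded by mitochondrial DNA; all others are nuclear, and these were taken here by their symbols, as every protein-coding gene that begins with Uqcr, with Cox4 to Cox8 or with Atp5. The symbol rule itself used no measured value, but it was chosen with earlier results of these data known. It gave 44 of the 47729 genes in the count files: 8 of complex III, 18 of complex IV and 18 of the ATP synthase, 39 of which had enough counts to be tested. For 3 members the symbol differs from RefSeq's: Atp5f1 is RefSeq's Atp5pb (stalk subunit b), Usmg5 is Atp5md (subunit DAPIT), and Atp5s is Dmac2l, a factor B-like protein that belongs to the set by its symbol alone.

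The study profiled whole cortex of mouse embryos at day E15.5. All samples carried a conditional knockout (cKO) of BAF155, which belongs to the BAF (SWI/SNF) machinery that remodels nucleosomes, and were given vehicle or TSA (trichostatin A), a drug that blocks histone deacetylases. Controls with intact BAF155 were not analysed here, and both groups compared below carried the conditional knockout. RNA was sequenced from 4 Vehicle and 4 TSA samples, and chromatin carrying histone H3 acetylated at lysine 9 (H3K9ac), a mark of active gene starts, from a further 4 and 4. The Cre driver of the knockout, the dose and timing of TSA, and whether a replicate was 1 embryo or several could not be read from the labels. The p-values therefore speak only for the spread among these samples, which may be technical.

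Nuclear respiratory genes are known for promoters that lack a TATA box and carry sites of NRF1 and of ETS-family factors such as GABP (also called NRF-2), and several of them start back to back with an unrelated gene. Promoter sequences of 34 of the 44 members were at hand (RefSeq, GRCm38.p6, 250 bases before to 50 after each listed start). The 10 members with no entry were Atp5a1, Atp5mpl, Cox4i1, Cox4i2, Cox6a2, Cox6c, Cox8c, Uqcrb, Uqcrc2 and Uqcrq. The palindromic NRF1 motif, 10 bases long and shown in capitals in Atp5k below, was found in 4 of 34 members (11.8%) and in 1.47% of the 17492 protein-coding genes with an entry. The ETS motif CCGGAAG was found on either strand in 11 of 34 members (32.4%) and in 12.9% of all, the YY1 motif AAGATGG in 4 (11.8%) and in 7.18%, and the NF-Y motif CCAAT in 19 (55.9%) and in 42.3%. The SP motif GGGCGG was found in 13 (38.2%) and in 49.2% of all, and the TATA motif TATAAA in 4 (11.8%) and in 14.8%. A match describes the letters of the window and is not a measured binding site.

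Stretches of 250 bases that end at the base before the start are shown for 3 members because they hold the NRF1 and ETS letters, with the matches in capitals, each 5′ to 3′ on the gene's strand (minus in all 3). Atp5k encodes subunit e of the synthase (chr5:108434400-108434649), Cox6a1 a regulatory subunit of complex IV (chr5:115348959-115349208) and Cox6b1 a complex IV subunit on the side of the membrane where cytochrome c docks (chr7:30626115-30626364).
Atp5k: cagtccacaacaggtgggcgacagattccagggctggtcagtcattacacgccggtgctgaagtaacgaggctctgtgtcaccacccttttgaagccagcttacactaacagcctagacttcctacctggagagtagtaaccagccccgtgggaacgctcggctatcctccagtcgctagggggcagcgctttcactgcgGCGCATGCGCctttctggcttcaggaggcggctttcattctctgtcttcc
Cox6a1: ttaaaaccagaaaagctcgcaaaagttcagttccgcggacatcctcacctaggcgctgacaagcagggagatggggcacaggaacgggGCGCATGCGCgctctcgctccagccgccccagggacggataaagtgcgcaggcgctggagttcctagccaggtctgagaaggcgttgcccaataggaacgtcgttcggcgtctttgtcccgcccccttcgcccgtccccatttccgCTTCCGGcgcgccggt
Cox6b1: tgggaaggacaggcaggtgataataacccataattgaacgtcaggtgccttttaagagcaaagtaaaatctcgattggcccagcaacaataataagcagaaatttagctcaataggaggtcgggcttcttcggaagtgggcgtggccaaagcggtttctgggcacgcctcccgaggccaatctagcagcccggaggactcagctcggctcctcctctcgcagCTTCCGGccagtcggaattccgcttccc
The NRF1 match of Atp5k lay 50 to 41 bases before the start and that of Cox6a1 162 to 153 bases before it. The ETS match of Cox6a1 lay 16 to 10 bases and that of Cox6b1 28 to 22 bases before the start, both read on the opposite strand.

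A further 3 sequences lie between a member and a neighbour that is read in the opposite direction, and are shown because the RNA of the paired genes is compared below. They run 5′ to 3′ on the member's strand (minus in all 3), from the base after the neighbour's start to the base before the member's start, with every match to the 6 motifs in capitals.
Lrrc41 to Uqcrh, chr4:116075071-116075268: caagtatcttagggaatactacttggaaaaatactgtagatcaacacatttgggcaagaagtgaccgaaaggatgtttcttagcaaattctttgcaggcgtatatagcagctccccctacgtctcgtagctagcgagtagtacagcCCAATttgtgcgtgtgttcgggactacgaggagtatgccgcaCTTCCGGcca
Pdcd11 to Usmg5, chr19:47090648-47090765: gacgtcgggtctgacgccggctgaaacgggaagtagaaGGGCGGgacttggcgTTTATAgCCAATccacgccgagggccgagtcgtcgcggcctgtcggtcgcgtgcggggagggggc
Gabpa to Atp5j, chr16:84834977-84835123: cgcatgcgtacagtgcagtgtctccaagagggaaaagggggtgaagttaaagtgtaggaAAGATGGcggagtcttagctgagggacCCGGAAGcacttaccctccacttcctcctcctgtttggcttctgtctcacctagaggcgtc
The stretch beside Uqcrh holds an NF-Y and an ETS match, the one beside Usmg5 an SP, a TATA (opposite strand) and an NF-Y match, and the one beside Atp5j a YY1 and an ETS match.

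RNA of these genes was lower with TSA. Of the 39 tested members 29 fell and 0 rose (edgeR quasi-likelihood test, Benjamini-Hochberg adjusted p under 0.05 over 15000 tested genes), where 17.6% of all tested genes fell and 15.4% rose (33.0% in either direction). At an unadjusted p under 0.05 the number that rose was also 0, with edgeR and with DESeq2. The median log2 fold change (TSA minus Vehicle) was −0.73 over the 39 and −0.01 over all tested genes. Falls ranged from −0.32 for Cox6a1 to −1.21 for Atp5l, the synthase's membrane subunit g; 24 were of 0.5 or more and 6 of 1 or more. In 24 of 39 members every TSA library lay below every Vehicle library, as it did in 17.4% of all tested genes, and 0 had every TSA library above, as 14.9% of all did. The members together took 0.546, 0.516, 0.567 and 0.646% of all counts in Vehicle 1 to 4 and 0.391, 0.393, 0.380 and 0.373% in TSA 1 to 4. In whole tissue, fewer cells of a type and less RNA per cell cannot be told apart.

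**Figure D1:**
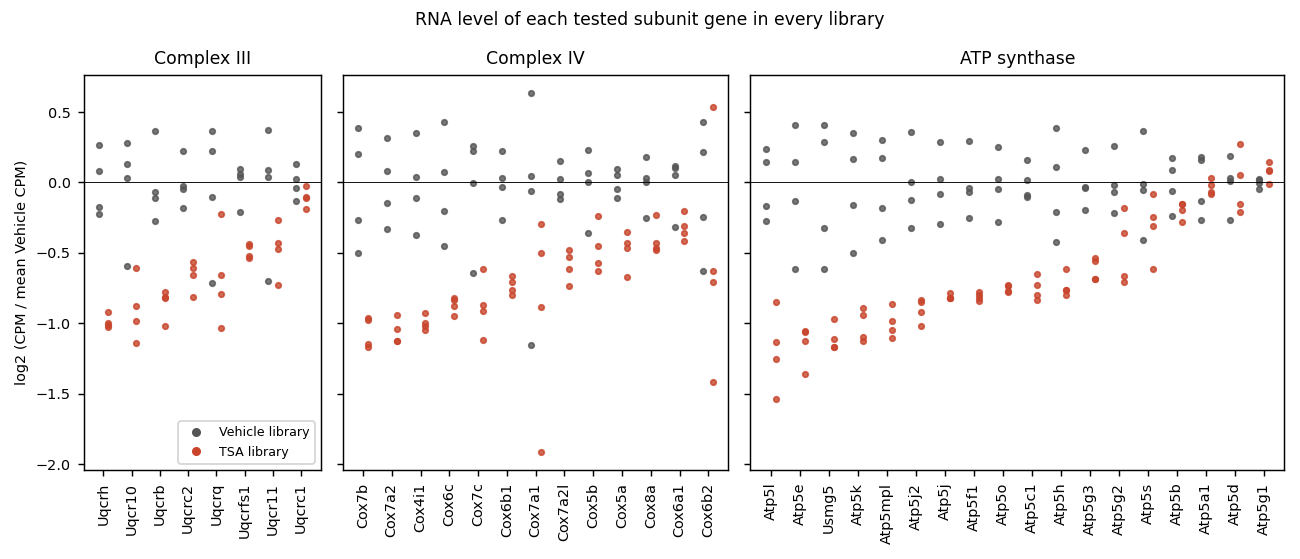
Each point is 1 RNA library (4 Vehicle in grey, 4 TSA in red); the vertical axis is log2 of the gene's CPM divided by its mean CPM in Vehicle, for the 39 tested members by complex. The TSA points lie below all Vehicle points in 24 genes and among them at the right end of each panel (Uqcrc1, Cox6b2, Atp5a1, Atp5d, Atp5g1).

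Total counts per RNA library ran from 6733415 to 20400727, the lowest in TSA 1. Counts of mitochondrially encoded genes made up 2.86, 1.60, 2.0 and 3.36% in Vehicle 1 to 4 and 1.48 to 1.71% in TSA. The Vehicle libraries with most of them, 1 and 4, also had relatively more counts on short genes: the slope of log2 CPM, as its deviation from each gene's mean, over log10 of the gene's genomic span was −0.16 and −0.20 there, 0.05 and −0.07 in Vehicle 2 and 3, and 0.03 to 0.15 in TSA. Vehicle 4 was the highest Vehicle library in 27 of the 29 members that fell and Vehicle 2 the lowest in 25. Without Vehicle 1 and 4, 25 members fell, 24 of them among the 29, with a median of −0.57 over the 40 tested. With each library's span trend removed (limma) 25 fell and 0 rose, while 1 rose at an unadjusted p under 0.05. Xist, the RNA of the inactive X, was at 1788 to 3228 CPM in Vehicle and 2277 CPM in TSA 4, but at 0.297 to 1.44 CPM in TSA 1 to 3, so Xist level and treatment overlap in 1 TSA library only. TSA 4 lay below every Vehicle library in 27 of the 29. These 29 were called with TSA 4 among the libraries, so their choice favours a high number here. A fit with an Xist term takes the TSA effect from TSA 4 alone against the Vehicle libraries. With Xist level (high or low) as a factor the median was −0.71, 17 members and 1575 genes in all (4954 without it) passed, and all 17 fell.

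In complex III 6 of 8 genes fell, with a median of −0.65 over the 8, and in 5 of them the groups did not overlap. Over all tested genes 17.6% fell, and 17.4% had every TSA library below every Vehicle library. Uqcrh (ENSMUSG00000063882, chromosome 4, 116066965 to 116075070), the hinge protein that docks cytochrome c1, had 197, 160, 165 and 224 CPM (counts relative to the TMM-scaled size of the library) in the Vehicle libraries, in the order 1 to 4, and 93.4, 98.6, 91.6 and 92.7 CPM in those with TSA. All TSA values were below all Vehicle values, a change of −0.99 ± 0.11 on the log2 scale (± SE, as below, 4 libraries per group, adjusted p = 3.94e-05). Uqcrfs1 (ENSMUSG00000038462, chromosome 13, 30540312 to 30545316), the Rieske iron-sulphur protein that takes electrons from ubiquinol, had 95.3, 118, 113 and 115 CPM in Vehicle and 76.1, 80.9, 81.5 and 76.9 CPM in TSA. Its groups were separate, with a smaller change of −0.48 ± 0.09 (adjusted p = 0.000874). Uqcrb (ENSMUSG00000021520), a small subunit near the ubiquinone site, had 21.0, 18.2, 20.4 and 28.3 CPM against 12.5, 10.8, 12.4 and 12.8 CPM, separate groups that differed by −0.86 ± 0.14 (adjusted p = 0.000519).

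The core proteins of complex III are paired in the matrix arm and did not move alike. Uqcrc2 (ENSMUSG00000030884, chromosome 7, 120635189 to 120659523), core protein 2, had 236, 263, 260 and 313 CPM in Vehicle and 175, 181, 170 and 152 CPM in TSA. These groups were separate, and the change was −0.66 ± 0.10 (adjusted p = 0.000275). Uqcrc1 (ENSMUSG00000025651, chromosome 9, 108936648 to 108949641), core protein 1, had 137, 153, 165 and 146 CPM in Vehicle and 140, 132, 139 and 147 CPM in TSA. The groups overlapped, and the log2 fold change was −0.11 ± 0.08 (adjusted p = 0.375). The difference between the core genes was not itself tested. Uqcr11, a small subunit, had 22.6, 13.5, 23.4 and 28.4 CPM against 16.3, 15.9, 13.2 and 18.3 CPM. Vehicle 2 lay among the TSA libraries, and Uqcr11 at −0.47 ± 0.19 missed the threshold (adjusted p = 0.0730), which it passed without Vehicle 2 (−0.64, adjusted p = 0.00145). Uqcr10 fell by 0.90 and Uqcrq by 0.65 on the log2 scale. The call of Uqcrq (adjusted p = 0.0400) was lost on leaving out any 1 of Vehicle 1, 3 and 4 and TSA 1, 2 and 3 (adjusted p = 0.0503 to 0.135).

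Complex IV had 13 of its 18 genes tested, and 11 of the 13 fell, 7 of them with separate groups. The median over the 13 was −0.66. Among all tested genes 17.6% fell, and 17.4% had every TSA library below every Vehicle library. Its nuclear subunits surround a catalytic core made in the mitochondrion, and several exist as a common form and a form of muscle, lung or testis. Cox4i1 (ENSMUSG00000031818, chromosome 8, 120668225 to 120674209), the common form of the subunit that binds ATP as a regulator, had 366, 275, 331 and 456 CPM in Vehicle and 179, 188, 176 and 173 CPM in TSA. The TSA libraries lay close together, below all Vehicle libraries, and the change was −0.997 ± 0.13 (adjusted p = 8.78e-05). Cox7a2 (ENSMUSG00000032330, chromosome 9, 79755241 to 79771422), the common form of subunit 7a, had 181, 137, 155 and 213 CPM against 83.2, 89.4, 78.8 and 78.6 CPM. Its groups were separate, at −1.06 ± 0.12 (adjusted p = 5.55e-05).

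Cox6b1 (ENSMUSG00000036751, chromosome 7, 30616971 to 30626114), whose upstream sequence is shown above, had 213, 173, 204 and 244 CPM in Vehicle and 128, 131, 123 and 120 CPM in TSA, a change of −0.73 ± 0.10 between separate groups (adjusted p = 0.000151). Cox7a2l, a 7a-related protein that joins complexes III and IV into supercomplexes, had 76.4, 74.5, 82.2 and 89.7 CPM against 57.9, 52.7, 48.5 and 56.0 CPM. Its groups were also separate, with a change of −0.59 ± 0.09 (adjusted p = 0.000334). Cox7b, on the X chromosome, had 144, 88.6, 104 and 164 CPM against 56.5, 64.3, 55.7 and 63.8 CPM. TSA 4, the TSA library with high Xist, lay within the range of the other TSA libraries for this gene, and the change was −1.06 ± 0.16 (adjusted p = 0.000348).

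Changes of the common forms of subunits 8 and 6a were smaller, and their groups overlapped. Cox8a had 64.4, 54.0, 65.5 and 72.8 CPM in Vehicle and 47.6, 54.6, 46.5 and 46.1 CPM in TSA (−0.40 ± 0.10, adjusted p = 0.00852). Cox6a1 had 122, 94.1, 125 and 127 CPM against 102, 94.7, 87.6 and 91.3 CPM (−0.32 ± 0.10, adjusted p = 0.0261). Vehicle 2 was the low Vehicle library in both genes. The call of Cox6a1 was lost on leaving out any 1 of Vehicle 1, 3 and 4 and TSA 2, 3 and 4 (adjusted p = 0.0505 to 0.0735), and those of Cox6a1, Cox8a and Cox5b were lost with the span trend removed (adjusted p = 0.303, 0.147 and 0.144). The remaining subunits that fell, Cox5a, Cox5b, Cox6c and Cox7c, did so by 0.47 to 0.86 on the log2 scale.

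The tissue forms of complex IV were at or near 0 in this tissue, and the set therefore describes the common enzyme. Summed over 4 libraries, Cox4i2, the lung form, had 48 counts in Vehicle and 32 in TSA, while Cox4i1 made up 99.8 and 99.7% of the pair. Cox6a2, the heart and muscle form, and Cox7b2, a testis form, had 4 counts in Vehicle and 1 in TSA each. Cox8b and Cox8c had 0 in every library. These 5 genes did not enter the test. Cox7a1, the heart and muscle form of subunit 7a, had 1.79, 0.516, 1.10 and 1.19 CPM against 0.305, 0.621, 0.938 and 0.813 CPM (−0.66 ± 0.41, adjusted p = 0.242). Cox6b2, the testis form, had 1.65, 1.42, 1.03 and 0.792 CPM against 0.457, 0.791, 1.78 and 0.750 CPM (−0.27 ± 0.39, adjusted p = 0.647). Both overlapped between groups at these low counts. Within the 7a set the share of counts on Cox7a2 was 64.6 to 70.1% in Vehicle libraries and 58.0 to 62.6% in TSA libraries, while that of Cox7a2l was 29.4 to 35.2% and 36.9 to 41.4%; neither range overlapped between groups.

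**Figure D2:**
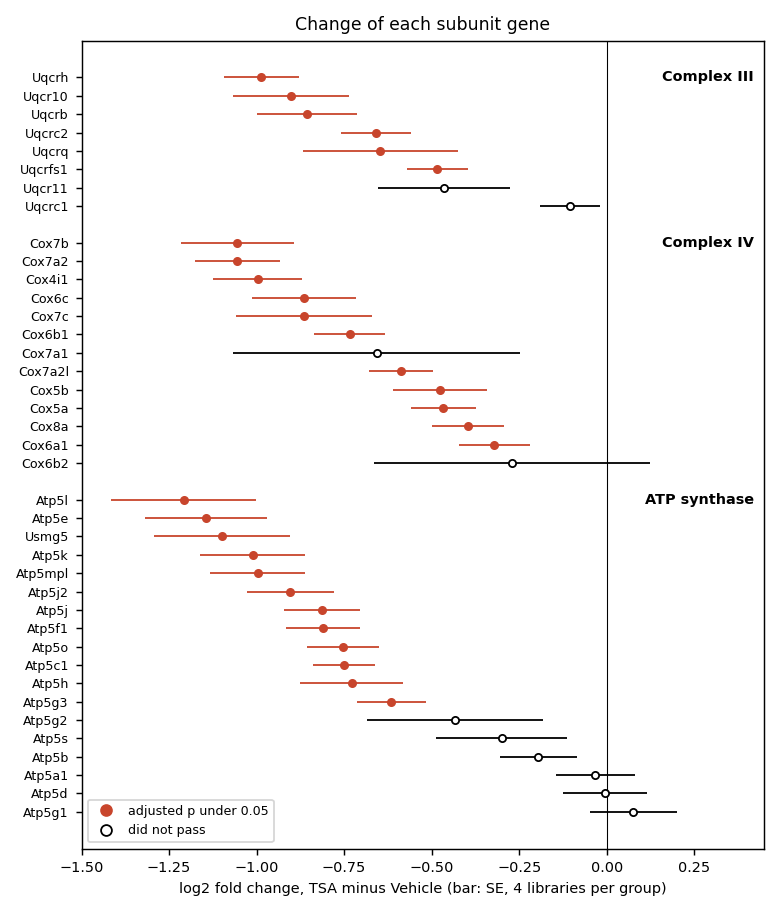
The log2 fold change of each tested member (horizontal axis, TSA minus Vehicle, bar: SE, 4 libraries per group), by complex; filled red points passed an adjusted p under 0.05 and open points did not. Of 39 genes 29 are filled, all left of 0, and the open ATP synthase points include both large catalytic subunits, Atp5a1 and Atp5b.

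The ATP synthase had all 18 genes tested. Of these 12 fell, each with separate groups, where 17.6% of all tested genes fell and 17.4% had every TSA library below every Vehicle library. They were all 4 genes of the peripheral stalk and all 5 of the small membrane subunits (e, f, g, DAPIT and the small proteolipid). The others were 2 of 5 F1 genes and 1 of 3 c-ring genes. Of the stalk that holds F1 against rotation, Atp5f1 (subunit b; ENSMUSG00000000563, chromosome 3, 105942698 to 105959263) had 186, 163, 189 and 239 CPM in Vehicle and 114, 108, 112 and 110 CPM in TSA (−0.81 ± 0.11, adjusted p = 0.000104). Atp5o (OSCP, which ties the stalk to the top of F1; ENSMUSG00000022956, chromosome 16, 91925223 to 91931630) had 185, 158, 194 and 227 CPM against 115, 115, 112 and 111 CPM (−0.75 ± 0.10, adjusted p = 0.000142). Atp5j (coupling factor 6; ENSMUSG00000022890, chromosome 16, 84827871 to 84835857) had 131, 105, 121 and 157 CPM against 72.7, 72.6, 72.7 and 74.5 CPM (−0.81 ± 0.11, adjusted p = 0.00012). In each of these genes the 4 TSA libraries lay within a few CPM of each other and below all Vehicle libraries. Stalk subunit d, Atp5h, fell by 0.73 on the log2 scale.

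The membrane subunits e, g and DAPIT, which help synthase dimers bend the cristae, all fell by more than 1 on the log2 scale: −1.01 ± 0.15 for Atp5k, −1.21 ± 0.21 for Atp5l and −1.10 ± 0.19 for Usmg5. Atp5l was low in counts, at 5.44 to 7.77 CPM in Vehicle and 2.27 to 3.66 CPM in TSA. Usmg5 had 41.9, 22.4, 27.3 and 45.5 CPM against 15.9, 17.5, 15.3 and 15.3 CPM. The spread was wider in Vehicle, where libraries 1 and 4 were high. Atp5j2 (subunit f) and Atp5mpl (the small proteolipid) fell by 0.903 and 0.997.

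In the F1 head 2 genes fell and 3 did not pass. Its alpha and beta subunits form the catalytic ring, and gamma, delta and epsilon the central stalk that turns inside it. Atp5b (beta; ENSMUSG00000025393, chromosome 10, 128083307 to 128090388) had 896, 1193, 1121 and 1013 CPM in Vehicle and 949, 948, 923 and 869 CPM in TSA (−0.20 ± 0.11, adjusted p = 0.188). Atp5a1 (alpha; ENSMUSG00000025428, chromosome 18, 77773768 to 77782869) had 579, 792, 781 and 637 CPM against 712, 689, 667 and 660 CPM (−0.03 ± 0.11, adjusted p = 0.858), with a 95% interval of −0.25 to 0.19. Atp5d (delta; ENSMUSG00000003072) had 72.1, 58.7, 80.4 and 71.2 CPM against 85.2, 63.6, 61.0 and 73.2 CPM (0.00 ± 0.12, adjusted p = 0.980). Groups overlapped in all 3 of these genes, and in Atp5b and Atp5a1 Vehicle 1 and 4 were the low Vehicle libraries, whereas Vehicle 4 was the highest Vehicle library in 27 of the 29 genes that fell. Without Vehicle 1 and 4, Atp5b passed the threshold (−0.33, adjusted p = 0.0104).

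Gamma and epsilon fell. Atp5c1 (gamma; ENSMUSG00000025781, chromosome 2, 10056030 to 10080510) had 231, 232, 251 and 277 CPM in Vehicle and 142, 158, 150 and 139 CPM in TSA, and had the smallest p of the synthase genes (−0.75 ± 0.09, adjusted p = 6.19e-05). Atp5e (epsilon; ENSMUSG00000016252) had 147, 87.3, 122 and 177 CPM against 61.1, 64.1, 52.0 and 64.2 CPM (−1.14 ± 0.17, adjusted p = 0.000368). The 5 F1 genes can be set against each other within a library, which takes out the scaling between libraries. For every 100 counts of Atp5b there were 25.7, 19.5, 22.4 and 27.3 counts of Atp5c1 in Vehicle and 15, 16.6, 16.2 and 16 in TSA, so the means were 23.7 ± 3.50 and 16 ± 0.70 (SD, n = 4) and the groups were separate. Atp5a1 gave 64.6, 66.4, 69.6 and 62.9 counts in Vehicle and 75.0, 72.7, 72.3 and 75.9 in TSA, separate in the other direction (65.9 ± 2.89 and 74.0 ± 1.77). Atp5e gave 13 ± 4.8 and 6.55 ± 0.72 counts and Atp5d 6.79 ± 1.33 and 7.68 ± 1.20, both with overlap. These ratios were chosen after the changes were seen and carry no test. In these libraries the ratio to Atp5b was lower with TSA for Atp5c1 and higher for Atp5a1, without overlap.

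**Figure D3:**
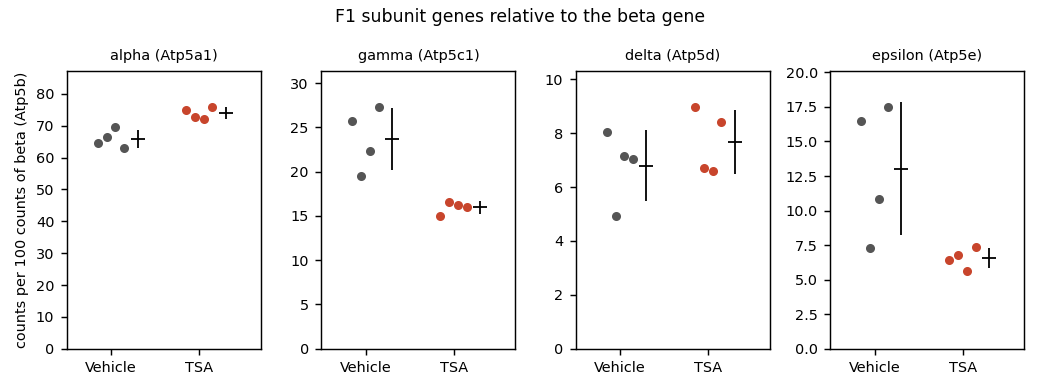
Counts of 4 F1 subunit genes for every 100 counts of the beta gene Atp5b (vertical axes) in each RNA library (points; Vehicle grey, TSA red), with mean and SD (black, n = 4). Gamma (Atp5c1) lies lower in every TSA library, alpha (Atp5a1) higher, and delta and epsilon overlap.

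The membrane ring of subunit c is encoded by 3 genes whose mature protein is the same. Atp5g3 (ENSMUSG00000018770, chromosome 2, 73908447 to 73912464) had 237, 212, 238 and 285 CPM in Vehicle and 167, 165, 151 and 152 CPM in TSA, with separate groups (−0.62 ± 0.10, adjusted p = 0.000372). Atp5g1 had 10.2, 9.86, 10.3 and 10.4 CPM against 11.3, 10.8, 10.8 and 10.1 CPM, and its groups overlapped (0.08 ± 0.12, adjusted p = 0.691). Atp5g2 had 2.68, 1.93, 2.14 and 2.22 CPM against 1.37, 1.41, 1.98 and 1.75 CPM (−0.43 ± 0.25, adjusted p = 0.208). Atp5g3 held 94.7 to 95.8% of the counts of the 3 genes in Vehicle libraries and 92.2 to 93.1% in TSA libraries. The share of Atp5g1 was 3.48 to 4.40% and 6.11 to 6.58%, without overlap. Reads on the stretch that the 3 genes have in common may have been split between them by the authors' counting. Atp5s, not a structural subunit, had an overlap between groups (−0.30 ± 0.19, adjusted p = 0.240).

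Several members start back to back with another gene. Of the 34 members with a listed start, 7 (20.6%) had a gene on the opposite strand starting within 1000 bp, all arranged back to back; 9.61% of all protein-coding genes with an entry had an opposite-strand start that near, in any arrangement. All 7 members fell, by 0.73 to 1.10 on the log2 scale. Of the neighbours 1 fell (Zmat5, beside Uqcr10, −0.35 ± 0.13, adjusted p = 0.0459), 1 rose (Pdcd11, beside Usmg5, 0.50 ± 0.10, adjusted p = 0.00163) and 5 did not pass, beside 17.6% of all tested genes that fell and 15.4% that rose. Pdcd11, a ribosome biogenesis factor, averaged 66.6 CPM with vehicle and 94.4 CPM with TSA, from a start 119 bp from that of Usmg5. Lrrc41, a substrate receptor of ubiquitin ligases that starts 199 bp from Uqcrh, had 34.3 and 39.1 CPM (0.19 ± 0.10, adjusted p = 0.162).

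Gabpa encodes the DNA-binding subunit of GABP, the ETS-family regulator of respiratory genes named above, and starts 148 bp from Atp5j. Its means were 69.3 and 79.1 CPM (0.19 ± 0.12, adjusted p = 0.267). The neighbours Kin beside Atp5c1, Wdr77 beside Atp5f1 and Kctd2 beside Atp5h had changes of 0.01, −0.07 and 0.06, none past the threshold. The difference between partners was not tested. The libraries do not mark strand, and 1 further listed start of Atp5j lies inside Gabpa, so reads there cannot be told apart.

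**Figure D4:**
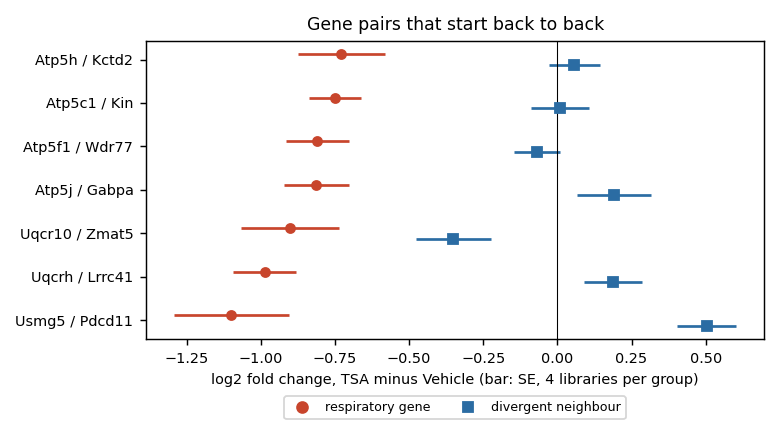
The log2 fold change (horizontal axis, TSA minus Vehicle, bar: SE, 4 libraries per group) of the 7 members with a back-to-back neighbour (red circles) and of that neighbour (blue squares). All circles lie between −1.10 and −0.73, and the squares between −0.35 and 0.50.

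Genes that work with these complexes, taken as lists, were described the same way, beside 17.6% of all tested genes that fell and 15.4% that rose. Cyc1, the cytochrome c1 of complex III, had 141 to 160 CPM in Vehicle and 106 to 113 CPM in TSA and was at −0.42 ± 0.08 (adjusted p = 0.00108). Ndufa4, once assigned to complex I and now to complex IV, had 146 to 266 CPM and 103 to 114 CPM and fell by 0.96 (adjusted p = 0.000508). Of 6 complex III assembly genes 4 fell and 0 rose, among them Uqcc2, needed to make cytochrome b (−0.98 ± 0.16), Uqcc1 (−0.32 ± 0.09) and Uqcc3 (−0.49 ± 0.16). Of 22 tested complex IV assembly genes 11 fell and 0 rose, with a median of −0.36. Coa3, which holds the new Co1 chain, was at −0.94 ± 0.15, Cox19 at −0.44 ± 0.10 and Coa4 at −0.80 ± 0.19. Of 3 synthase assembly genes Tmem70 (−0.76 ± 0.12) and Atpaf2 (−0.33 ± 0.10) fell. Of 7 carriers and channels of ATP, ADP and phosphate 3 fell: Slc25a4 (−0.48 ± 0.10), Vdac3 (−0.36 ± 0.09) and the phosphate carrier Slc25a3 (−0.25 ± 0.08).

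Most genes of complexes I and II, which feed electrons to ubiquinone, also fell, where 17.6% of all tested genes did. Of 37 tested complex I genes 31 fell and 0 rose, with a median of −0.60, led in p by Ndufv2 (−0.93 ± 0.11), Ndufb6 (−1.05 ± 0.13) and Ndufs4 (−1.08 ± 0.14). The 6 that did not pass were Ndufs1 (−0.12 ± 0.10), Ndufv1 (−0.10 ± 0.08), Ndufs7, Ndufa10, Ndufab1 and Ndufa4l2, named after their values were seen. The list was taken by symbols that begin with Nduf, without assembly factors and Ndufa4, and Ndufa4l2 belongs to it by its symbol alone. In complex II the membrane anchors Sdhd (−0.83 ± 0.11) and Sdhc (−0.32 ± 0.08) and the iron-sulphur subunit Sdhb (−0.28 ± 0.08) fell, while the flavoprotein Sdha had 165, 220, 200 and 157 CPM in Vehicle and 221, 224, 215 and 210 CPM in TSA (0.23 ± 0.11, adjusted p = 0.116). Cycs, somatic cytochrome c, had 3.16 to 4.27 CPM and 1.94 to 2.90 CPM and fell by 0.63 (adjusted p = 0.0396). With Xist level as a factor 10 complex I genes and 3 assembly genes fell, of 31 and 17 without it. Without Vehicle 1 and 4, 7 assembly genes fell.

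The partners encoded by mitochondrial DNA were measured only in part. The catalytic subunit mt-Co1 of complex IV had 7162, 3995, 4992 and 7908 CPM in Vehicle and 3742, 3859, 4223 and 3914 CPM in TSA. The cytochrome b gene mt-Cytb of complex III had 7054, 4108, 5095 and 8111 CPM against 3969, 4152, 4397 and 4072 CPM. Both passed (−0.61 ± 0.18, adjusted p = 0.0189, and −0.55 ± 0.18, adjusted p = 0.0281), although Vehicle 2 lay among the TSA libraries, and Vehicle 1 and 4 were the high libraries. For mt-Co2, mt-Co3, mt-Atp6 and mt-Atp8 the files list 0 in every library, and no level is given. Of 12 tested regulators of respiratory genes 1 rose, Pprc1, a PGC-1-related coactivator (0.40 ± 0.09, adjusted p = 0.00273), and 2 fell, the GABP partner Gabpb1 (−0.41 ± 0.10, adjusted p = 0.00526) and the mitochondrial transcription factor Tfam (−0.36 ± 0.09, adjusted p = 0.00884). These shares, 8.33% that rose and 16.7% that fell, were not above those of all tested genes (15.4% and 17.6%). Nrf1 itself was at −0.05 ± 0.09 (adjusted p = 0.736).

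Genes outside respiration fell too. Of 82 tested cytosolic ribosomal protein genes 54 fell (65.9%) and 0 rose, with a median of −0.61, beside 74.4% and −0.73 for the members. Whether the lists differ was not tested. Some markers of cell types also differed between the groups. Of 12 markers of the cortical excitatory lineage 10 rose and 1, Pax6 of radial progenitors, fell; their summed level was 2091 to 2850 CPM in Vehicle and 3287 to 3837 CPM in TSA. Of 8 markers of the ganglionic eminence and inhibitory neurons 7 fell and 1, Lhx6, rose, at 926 to 1171 CPM and 472 to 706 CPM. None of these 20 genes was at 0. Which cells held the markers of the ganglionic eminence and inhibitory neurons was not tested. Of 8 erythroid markers 2 fell, Hbb-bs and Hbb-bt, at 198 to 489 CPM and 142 to 175 CPM. Of 8 microglial markers 3 fell (50.5 to 66.2 and 38.4 to 48.3 CPM), of 6 endothelial 1 (108 to 178 and 110 to 147 CPM) and of 5 tested meningeal 1 (14.1 to 18.4 and 12.1 to 17.1 CPM). The shares that fell were 25% for erythroid, 37.5% for microglial, 16.7% for endothelial and 20% for meningeal markers, beside 17.6% of all tested genes. Muscle markers summed to 1.04 to 2.04 CPM over all libraries. The part of these cell types, and of the share of mitochondrial counts, in the lower RNA of the respiratory genes was not tested.

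H3K9ac marked nearly all starts of these genes in both groups. The lists held 22668 to 61217 peaks from 11824246 to 24075842 tags per library, and Vehicle 4 had the fewest peaks from the most tags. A peak was counted at a member where it overlapped the 1000 bp either side of a listed start or, for the 10 members with no entry, of either annotated gene end. Between 36 and 39 of 44 members had a peak in a given library, and 36 had one in all 8. Over the 34 with a listed start, 29 (85.3%) did so, beside 44.7% of 17492 protein-coding genes. Among genes that entered the RNA test the shares were 29 of 32 members (90.6%) and 70.5% of 10641 genes.

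The members without a peak in all libraries were mostly the tissue forms. Cox6a2, Cox7b2 and Cox8c had a peak in no library, Cox6b2, Cox7a1 and Cox8b in 1 TSA library each, and Cox4i2 in 3 Vehicle and 3 TSA libraries. Cox7b, whose RNA was at 55.7 CPM or more in every library, lacked a peak only in Vehicle 4. Atp5b and Atp5a1, whose RNA did not pass, and Atp5c1, whose RNA fell, all had peaks in all 8 libraries.

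The length under H3K9ac peaks was also compared between the groups. The length under peaks in the window was lower in every TSA library than in every Vehicle library for 0 of the members, as for 0.0572% of all genes with a listed start. So few genes met this criterion that the 0 cannot tell whether H3K9ac differed at the members. It was higher in every TSA library for 1 member, Cox6b1, as for 0.795% of all. Cox6b1 had 487, 313, 455 and 270 bp under peaks in Vehicle 1 to 4 and 906, 588, 515 and 740 bp in TSA 1 to 4 (381 ± 106 and 687 ± 173 bp, SD, n = 4; two-sided exact permutation p = 0.0286, the smallest that 4 against 4 can give, not adjusted for the 44 members looked at), while its RNA fell. Uqcrfs1 had 486, 364, 574 and 346 bp and 1061, 791, 226 and 1322 bp, with TSA 3 below all Vehicle libraries. At Usmg5 the values were 1333, 1406, 1476 and 1154 bp in Vehicle and 1391, 1407, 1301 and 1703 bp in TSA, with overlap, in a window that also holds the start of Pdcd11. Peaks were called in each library alone, so their length moves with how much was called: the median over the 34 members with a listed start was 555 bp in Vehicle 4 and 931 to 986 bp in the other Vehicle libraries, and 689 to 1136 bp in TSA. Under a q-value limit of 1e-10, 8 members had a peak in all 8 libraries (7.01% of all genes with a listed start), and 6 (4.42%) where a peak had to cover at least a 50% share of the window.

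**Figure D5:**
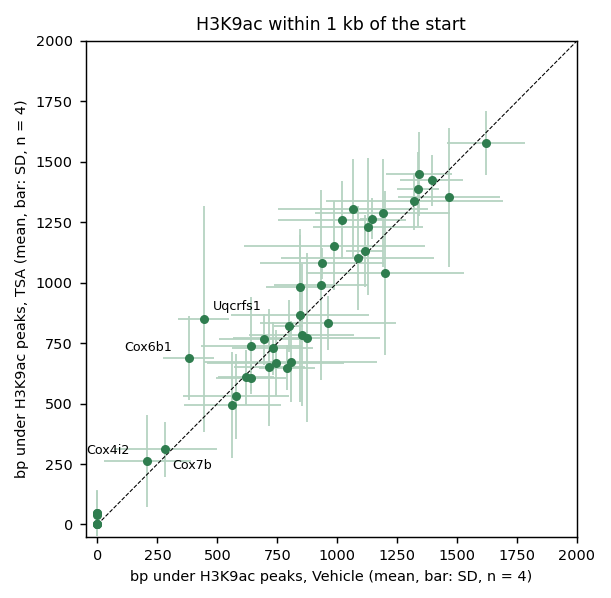
Length under H3K9ac peaks within 1000 bp of the start (bp; mean and SD of 4 libraries) in Vehicle (horizontal) and TSA (vertical) for the 44 members; the dashed line marks equal length. Most members lie near the line with SDs that cross it, Cox6b1 lies above it, and 6 tissue forms lie at or near 0.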

How the data were processed

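RNA was measured in 8 libraries (4 Vehicle, 4 TSA) and H3K9ac in a further 8. The authors deposited raw read counts per Ensembl gene with no normalization, 1 file per library. The TruSeq kit named in the labels' protocols is unstranded. The submitters' processing notes name mm10 and SAMtools. Which aligner, counting program and annotation made the counts is not given in the sources used here. The files' closing summary lines sum to 0, so the assigned share is unknown. Total counts of 6733415 to 20400727 limit the precision of low genes. Of the 47729 genes 47224 matched a symbol.

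Genes were kept by filterByExpr, scaled by TMM and tested with edgeR 4.0.16 in R 4.3.3 (quasi-likelihood, robust, no covariate); p-values are two-sided and Benjamini-Hochberg adjusted over 15000 genes. The SE is the size of the change divided by the square root of F. CPM were computed on TMM-scaled totals, a scale that does not correct for gene length, so levels are not compared between genes. No replicate pair agreed within sampling noise (chi-square per degree of freedom 3.13 or more). The test was checked on simulated counts. Pseudogenes that share the symbols (11, with 146 counts in all) were left out by biotype. DESeq2 1.42.0 and limma 3.58.1 served as alternatives.

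The H3K9ac lists were called for each library alone with MACS2 2.1.0.20140616 at a q-value limit of 0.1 against an input of 18937878 tags, with 50 bp tags and 1 tag kept per position, per the file headers. Their deposited columns are the summit's pileup signal, its fold over local background (a ratio), and the p-value and q-value as −log10. Only positions, the q-value as a limit and the fold over local background as a rank were used here. Libraries were therefore compared by presence and length of peaks. The 2 inputs were not analysed here. Promoter sequences and starts are RefSeq's, GRCm38.p6.

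The members and lists were chosen with earlier results of these data known. Named with values were the 4 smallest and 2 largest p of each complex, members of paralog sets, and in related lists every riser and up to 3 that fell; Uqcrq, Atp5b, Atp5e, Atp5k, Atp5l, Usmg5, the neighbours, the uncalled complex I and II genes, Nrf1 and the F1 ratios were chosen after their values were seen. Alternatives were another scaling, test or filter, each library left out, a replicate, lane or Xist term, Vehicle 1 and 4 left out, and removal of the gene-span trend.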

Additional observations from a re-analysis of the deposited data

Results flagged for a closer look

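In 3 of 152 groups of 4 libraries looked at, 1 library stood apart from the other 3 by Dixon's 95% limit of 0.829, a limit that chance passes in about 1 of 20 groups. Cox8a, subunit 8 of complex IV, had 54.6 CPM in TSA 2 and 46.1 to 47.6 CPM in the other TSA libraries. Atp5j, coupling factor 6 of the ATP synthase, had 74.5 CPM in TSA 4 and 72.6 to 72.7 CPM in the others, all below the Vehicle libraries. At Uqcrc2, core protein 2 of complex III, 771 bp lay under H3K9ac peaks in Vehicle 4 and 1464 to 1554 bp in the other Vehicle libraries; Vehicle 4 also had the fewest peaks.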

How the results depend on the processing

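The count of 29 members that fell was 29 with RLE size factors, without TMM scaling (an alternative chosen after seeing the data), with DESeq2 and with limma-voom, 30 with no filter on low counts and 30 with lane as a factor, and 27 to 30 when 1 library was left out. The number that rose was 0 in every one of these. Same-numbered libraries correlated weakly, at 0.097, 0.0851, 0.0696 and 0.111 in their deviations from the group means, with best partners of another number for 2 of 4. These values do not settle whether the replicate numbers pair the samples. With the number as a replicate block 30 members fell, all 29 among them. With Xist level as a factor 17 members, 10 complex I genes and 3 assembly genes fell. Leaving out Vehicle 1 and 4 gave 7 assembly genes that fell. In the fit with Xist level the TSA effect rests on TSA 4 alone against the Vehicle libraries. Why fewer genes passed in these fits was left untested. With the span trend removed 25 members fell, and 29 in the same limma fit with the trend kept (added after seeing the data). Members with an H3K9ac peak in all 8 libraries numbered 36, and 34 to 37 under other windows, a q-value limit of 0.01 or 1 library left out, but 8 at a q-value limit of 1e-10 and 6 where a peak had to cover at least a 50% share of the window, which both keep fewer peaks. Over single members and all settings, 33 calls were lost and 5 gained, none with a change of direction. Depth limits Cox6b2 and Cox7a1, each with under 40 counts in any library.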
